A study of Arabidopsis thaliana with 12 samples.

Results

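The data described here are the translated open reading frames (ORFs) that lie in genes annotated as pseudogenes or non-coding RNAs of Arabidopsis thaliana. They were taken from the ORF sets of root and shoot as every gene with an ORF of the non-coding category whose annotation class was pseudogene, ncRNA, miRNA or snRNA. This gave 52 of the 18273 genes with an ORF in either tissue, namely 27 pseudogenes, 23 ncRNA genes, 1 miRNA gene and 1 snRNA gene. Beyond being listed, no measured value entered the choice. RefSeq listed none of the 52 as protein coding, with 27 transcribed pseudogenes, 18 ncRNAs, 5 lncRNAs, 1 miRNA and 1 snRNA. The records of 8 of them overlap that of a separate protein-coding gene.

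The samples were roots and shoots of wild-type Col seedlings aged 4 days, grown in liquid medium and collected 3 h after the lights came on. Ribosome profiling, which sequences the RNA fragments that ribosomes protect from nuclease, and RNA-seq were each labelled with 3 samples per tissue, 12 samples in all. Each tissue was represented by a single deposited set of ORFs, in which every ORF carries 1 count. The spread between plants or libraries therefore could not be measured, and nothing below was tested. The exact 95% intervals of counts and ratios describe counting error alone. Those of shares treat genes or ORFs as independent draws, which they need not be, and measure no spread between plants. The RNA-seq data were not used here, so more transcript and more ribosomes per transcript cannot be told apart, and neither can fewer cells of a type and less RNA per cell.

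A pseudogene is a gene, in many cases a copy of another, whose reading frame has been interrupted or cut short. The ancestral protein can then no longer be made whole. Long non-coding RNAs and the precursors of microRNAs and trans-acting small interfering RNAs (tasiRNAs) are known for acting as RNA, but many are exported, capped and polyadenylated like messenger RNA and carry short ORFs that ribosomes can enter. An ORF with ribosome footprints in such a gene shows fragments from that stretch of RNA, and it does not show that a stable protein is made.

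The root set held 50 distinct ORFs of 43 of these genes and the shoot set 29 ORFs of 25 genes. Their largest ORF counts summed to 48230 in root, 0.0425% of the sum of 113381941 over all genes, and to 32613 in shoot, 0.0342% of 95481490. The counts were concentrated in a few genes. In root, the ncRNA genes AT1G10682, AT1G79075 and AT3G12965 held 45.3% of the sum of the 43 genes. In shoot, the pseudogene AT1G05135 alone held 49.6% of the sum of the 25 genes. None of the ORFs shared a base with an ORF of any other gene in the same set, on either strand. No gene of the 52 also held an ORF of another category.

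**Figure D1:**
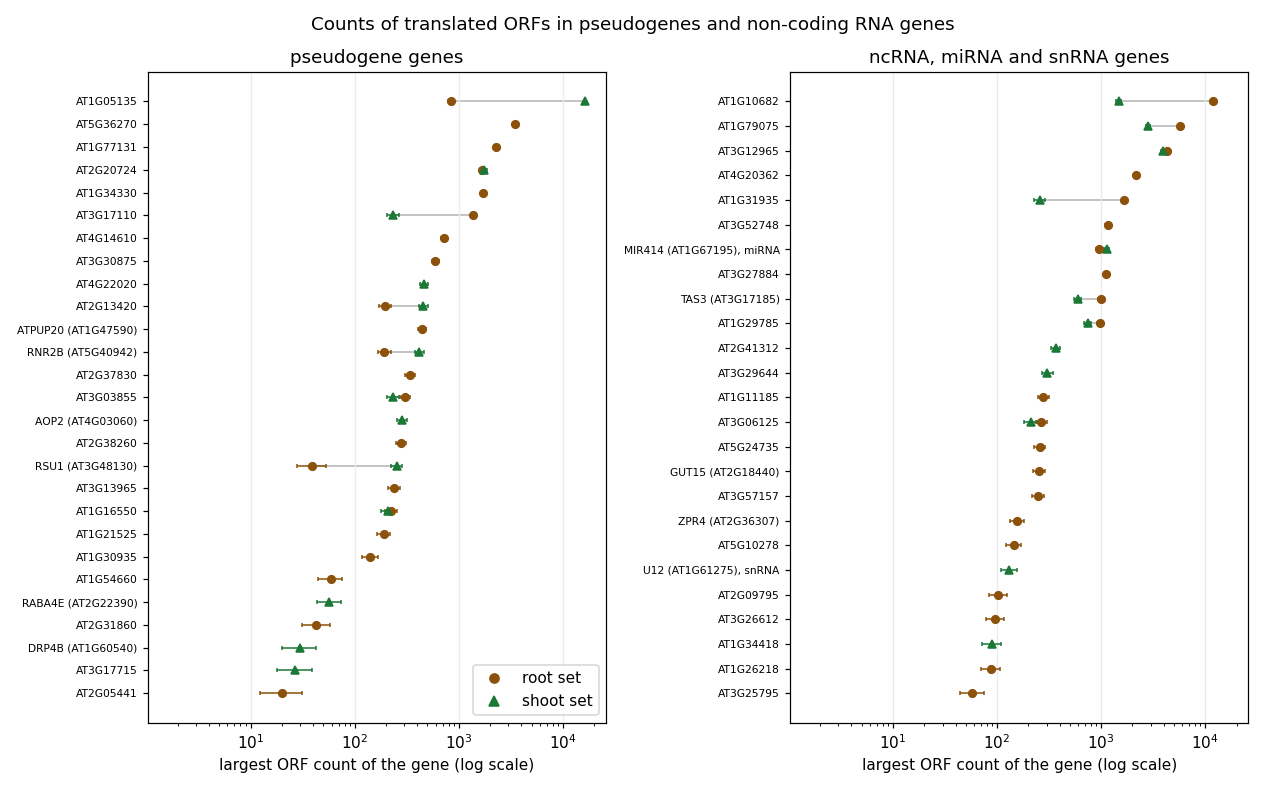
Largest ORF count of each of the 52 genes (log scale) in the root set (circles) and the shoot set (triangles), with exact 95% Poisson intervals; a grey line joins the values of a gene listed in both sets, and a missing symbol means that no ORF was listed. AT1G05135 has the largest shoot count, 16166, and AT1G10682 the largest root count, 11808.

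Most of these genes were listed in a single tissue. Of the 52, 16 were shared by the tissues (30.8%, interval 18.7 to 45.1), 27 appeared in the root set alone (51.9%, 37.6 to 66.0) and 9 in the shoot set alone (17.3%, 8.23 to 30.3). Over all 18273 genes the shares were 80.3%, 11.4% and 8.3%. Low sharing was not particular to these genes. For 149 genes with a translated upstream ORF the shares were 13.4%, 56.4% and 30.2%. For ORFs in 45 transposable element genes they were 48.9%, 15.6% and 35.6%. Within the 52 genes the main classes were split in a similar way. Among the 27 pseudogenes, 8 were shared, while 14 appeared in the root set alone and 5 in the shoot set alone. For the 23 ncRNA genes these numbers were 7, 13 and 3. Absence from a set means that no ORF was called, which is not evidence that ribosomes were absent.

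The counts of these genes were low, so the shares were also set side by side by the largest ORF count of a gene in either tissue, in classes chosen after the data were seen. Among genes with 100 to under 1000 counts, 8 of 28 pseudogene and non-coding RNA genes were listed in both tissues (28.6%, 13.2 to 48.7), against 2849 of 5074 coding genes (56.1%, 54.8 to 57.5). With 1000 counts or more the shares were 8 of 14 (57.1%, 28.9 to 82.3) and 11770 of 12787 (92.0%, 91.6 to 92.5). In both classes the intervals did not overlap, which describes these gene lists and is not a test. Within them the coding genes still had the higher counts, with medians of 496 against 278.5 in the lower class and 3791 against 1957 in the upper one, and the part of this gap in the shares was not tested. Under 100 counts, 0 of 10 and 16 of 311 genes were listed in both, and the intervals overlapped.

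**Figure D2:**
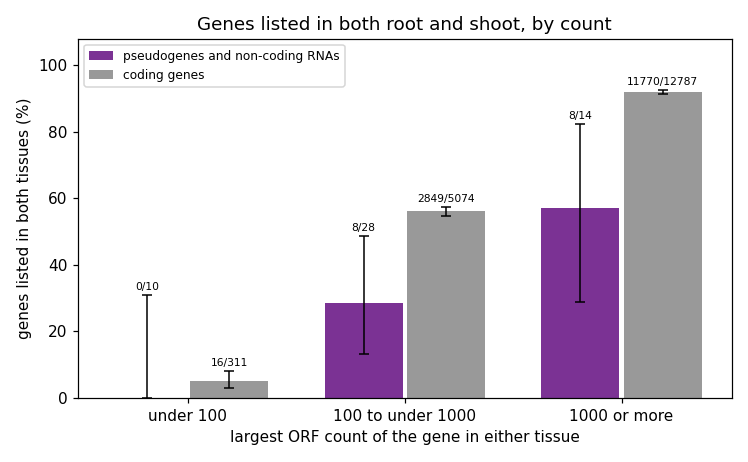
Share of genes listed in both root and shoot (%), by the largest ORF count of the gene in either tissue, for the 52 pseudogene and non-coding RNA genes (purple) and for coding genes (grey), with exact binomial 95% intervals and the number of genes above each bar. At 100 to under 1000 counts the shares are 28.6% and 56.1%.

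Among the ORFs of ncRNA genes, the most abundant were very short and densely counted. AT1G10682, on the minus strand of chromosome 1 from 3545322 to 3545407, held an ORF of 29 codons with 11808 counts in root (11596 to 12023) and 1476 in shoot (1402 to 1553). This came to 407 counts per codon in root, more than 99.3% of the coding ORFs there, and to 50.9 in shoot, more than 93.1%. AT3G12965, on chromosome 3 from 4137190 to 4137603, held a spliced ORF of 25 codons with 4317 counts in root and 3904 in shoot, or 173 and 156 counts per codon. Both values lay above 97% of the coding ORFs of their tissue, at 97.3% in root and 97.5% in shoot.

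AT1G79075, on the plus strand of chromosome 1, held a pair of ORFs that end at the same stop position. The first, of 25 codons, is spliced and begins in an upstream exon at 29746015, and the second, of 29 codons, begins at 29746617 and is not spliced. They had 5738 and 5719 counts in root and 2814 and 2769 in shoot. Their last 65 bases are shared, so the counts of the pair are largely the same fragments and were not added up. Per codon they had 230 and 197 counts in root and 113 and 95.5 in shoot.

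TAS3 (AT3G17185) is the precursor of the tasiRNAs that act on messenger RNAs of auxin response factors, and it is cut under the guidance of a microRNA. Its ORFs lie on the plus strand of chromosome 3. The longest, of 50 codons, is spliced, runs from 5861549 to 5862091, and had 997 counts in root (936 to 1061) and 598 in shoot (551 to 648). A second ORF of 22 codons, from 5862025, is the end of the first in the same frame, and had 687 counts in root and 320 in shoot. The last 44% of the codons of the long ORF thus held 68.9% of its counts in root and 53.5% in shoot. Put per codon, its last 22 codons had 31.2 counts in root against 11.1 over the first 28, and in shoot 14.5 against 9.93. The shoot set alone listed a further ORF of 31 codons with 214 counts, which starts where the long one does, continues from the shared 57 bases into the intron and ends within it, at 5861642.

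Of 8 well-known non-coding RNAs looked up, TAS3 was listed in both tissues, TAS4 (AT3G25795), whose tasiRNAs act on MYB factors of anthocyanin synthesis, was listed in root only, and 6 were listed in neither. TAS4 had an ORF of 43 codons with 58 counts in root (44.0 to 75.0), or 1.35 per codon, a value above 16.2% of coding ORFs. The 6 without a listed ORF were TAS1A, TAS1B, TAS1C and TAS2, and the phosphate starvation RNAs IPS1 and AT4, which act as decoys for a microRNA.

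MIR414 (AT1G67195), the miRNA gene, was listed in both tissues. Its ORF of 88 codons, on chromosome 1 from 25137381 to 25137643, had 961 counts in root (901 to 1024) and 1131 in shoot (1066 to 1199), or 10.9 and 12.9 per codon. These values stood above 70.2% and 77.9% of coding ORFs. The snRNA gene was U12 (AT1G61275), an RNA of the minor spliceosome, which removes a rare class of introns. It was listed in shoot only, with an ORF of 15 codons and 130 counts (109 to 154).

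The remaining ncRNA genes of both tissues were AT1G31935, AT1G29785 and AT3G06125. AT1G31935 had an ORF of 85 codons with 1649 counts in root and 257 in shoot. AT1G29785 had the longest ORF of any ncRNA gene, 104 codons, with 975 and 740 counts. AT3G06125 had an ORF of 22 codons with 267 and 210 counts. For this last gene the intervals overlap, at 236 to 301 in root and 183 to 240 in shoot.

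Of the 13 ncRNA genes listed in root only, counts ran from 58 in TAS4 to 2149 in AT4G20362, with a median of 248. AT4G20362 had a spliced ORF of 66 codons on chromosome 4 from 10991829 to 10992154, or 32.6 counts per codon. AT3G52748 and AT3G27884 followed with 1160 and 1121 counts, each over a spliced ORF of 76 codons. Of these, AT3G27884 joined 3 exons. In the RefSeq annotation the record of AT4G20362 overlaps those of the coding genes AT4G20350 and RABE1b (AT4G20360). AT4G20350 had an ORF listed in root only, and RABE1b had ORFs listed in both tissues. Whether the counting used the strand is not given in the sources used here, so the counts of AT4G20362 are uncertain.

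Lower in the root list stood AT1G11185 (278 counts), AT5G24735 (257), GUT15 (AT2G18440, 253), AT3G57157 (248), ZPR4 (AT2G36307, 156), AT5G10278 (146), AT2G09795 (102), AT3G26612 (96) and AT1G26218 (87). GUT15 is named for its unstable transcript. ZPR4 is named after the LITTLE ZIPPER proteins, short leucine zipper proteins that bind homeodomain transcription factors of leaf polarity and meristems, and its ORF had 72 codons. The RefSeq record of AT5G10278 overlaps that of MYB92 (AT5G10280), a coding gene with an ORF listed in root, so its count carries the same doubt. The record of AT1G26218 overlaps those of AT1G26220 and Cpn60beta4 (AT1G26230), coding genes with ORFs listed in shoot only. Its root count is uncertain too, though neither of these genes had an ORF listed in root. In shoot only, the ncRNA genes were AT2G41312 with 365 counts over 49 codons, AT3G29644 with 305 over 83 and AT1G34418 with 89 over 18.

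Pseudogene ORFs were longer and more thinly counted than those of ncRNA genes. In root, 27 pseudogene ORFs, 5 of them of AT3G30875, had a median of 148 codons (quartiles 101 and 217.5) and 2.00 counts per codon (1.21 and 3.44). The 22 ncRNA ORFs had a median of 43.5 codons (26.8 and 70.5) and 11.0 counts per codon (3.71 and 28.4). In shoot, 14 pseudogene ORFs had medians of 183 codons and 1.25 counts per codon, and 13 ncRNA ORFs had 29 codons and 9.55. The median coding ORF was 374 codons long in each set and had 5.02 counts per codon in root and 3.88 in shoot. Spliced ORFs were rare among the pseudogenes only. In root 1 of 27 pseudogene ORFs (3.7%) and 8 of 22 ncRNA ORFs (36.4%) spanned more than 1 exon block. In shoot the numbers were 1 of 14 and 4 of 13. Among coding ORFs, which are longer, the share in root was 84.7%. Among upstream ORFs, with a median of 22 codons in root and 21.5 in shoot, it was 7.41% and 13.6%.

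Because counts per codon depend on ORF length, ORFs of like length were set side by side. At 200 codons or more, 9 pseudogene ORFs in root had a median of 1.39 counts per codon (quartiles 1.15 and 2.21), against 4.33 (1.80 and 11.3) for 17423 coding ORFs. The 6 such pseudogene ORFs in shoot had 1.06, against 3.37. At 100 to under 200 codons, 11 pseudogene ORFs in root had a median of 2.83 and 5 in shoot had 1.33, while coding ORFs had 9.22 and 7.60. The root ORFs of this length include those of 148, 139, 130 and 120 codons of AT3G30875, which lie on 1 transcript and are not independent. Below 50 codons, 12 ncRNA ORFs in root had a median of 11.0 counts per codon, against 14.5 for coding ORFs and 11.7 for ORFs upstream of coding genes, and in shoot 9 had 14.5, against 11.0 and 7.13. Overlapping ORFs of AT1G79075 and of TAS3 entered these medians separately, though their counts are partly the same fragments. The shoot median of 14.5 is the value of the TAS3 ORF of 22 codons. At 50 to under 100 codons, 9 ncRNA ORFs in root had a median of 14.8, against 12.1 for coding ORFs, and 3 in shoot had 3.67, against 9.77. These are descriptions of 1 set per tissue, with no test.

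**Figure D3:**
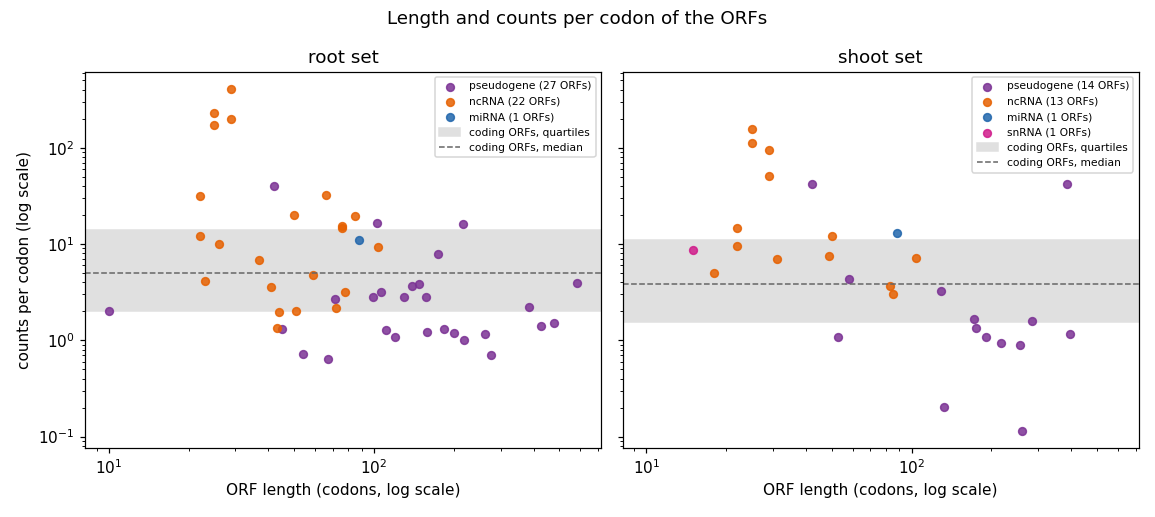
ORF length in codons against counts per codon (both log scale) for each ORF in the root set (left) and the shoot set (right), coloured by annotation class; the grey band and dashed line give the quartiles and the median of coding ORFs. Pseudogene ORFs lie mostly at the lower right, and the highest points are ncRNA ORFs of 25 and 29 codons.

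AT1G05135 was the pseudogene with the largest count. Its ORF of 384 codons, on the minus strand of chromosome 1 from 1477670 to 1478820, begins at the first base of its transcript. It had 850 counts in root (794 to 909) and 16166 in shoot (15918 to 16417). The shoot value came to 42.1 counts per codon, above 92.0% of coding ORFs, and the root value to 2.21, above 26.9%. Beside it among the pseudogenes of both tissues, AT2G20724 had a short ORF of 42 codons on chromosome 2 from 8932864 to 8932988, with 1682 counts in root and 1765 in shoot, or 40.0 and 42.0 per codon. AT3G17110, with 175 codons on chromosome 3 from 5837971 to 5838496, had 1369 counts in root and 232 in shoot.

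Among the 14 pseudogenes listed in root only, counts ran from 20 to 3474 with a median of 308.5. AT5G36270 had the largest, 3474 (3359 to 3591), over 217 codons on chromosome 5 from 14292932 to 14293583. AT1G77131 had the longest ORF of all 52 genes, 585 codons over 2 exon blocks, with 2292 counts. AT1G34330 had 1715 counts over 103 codons and AT4G14610 722 over 478. ATPUP20 (AT1G47590), of the purine permease family of membrane transporters, had 444 over 157 codons. At the other end stood AT1G54660 with 59 counts over 45 codons, and AT2G05441 with 20 (12.2 to 30.9) over 10 codons, the shortest ORF of the pseudogenes. Another 6 genes of this list had 43 to 338 counts over 67 to 200 codons.

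The 5 pseudogenes of shoot only had lower counts, 27 to 464, with a median of 57. AT4G22020 had 464 counts over 396 codons. AOP2 (AT4G03060), which in other accessions encodes a dioxygenase that makes alkenyl glucosinolates and is known to be non-functional in Col, had a spliced ORF of 172 codons on chromosome 4 from 1353120 to 1353853, with 285 counts (253 to 320). RABA4E (AT2G22390), a Rab GTPase homolog, had 57 counts over 53 codons, DRP4B (AT1G60540), a dynamin-related gene, 30 over 261, and AT3G17715 27 over 132. DRP4B had the fewest counts per codon of any of these ORFs, 0.115, above 0.546% of the coding ORFs in shoot. The RefSeq record of RABA4E overlaps that of the coding gene AT2G22400, which had ORFs in both tissues.

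Identical coordinates in both sets were found for 14 ORFs. They made up 28.0% of the 50 root ORFs (16.2 to 42.5), against 68.7% of all root ORFs, and 48.3% of the 29 shoot ORFs (29.4 to 67.5). Most of the unmatched root ORFs belong to genes with no ORF listed in shoot. Within the 16 genes of both tissues, 14 of 19 root ORFs were identical (73.7%, 48.8 to 90.9), close to the 77.1% over all genes of both tissues and with an interval that includes it. The 14 were 9 of 22 ncRNA ORFs, 4 of 27 pseudogene ORFs and that of MIR414. Another 4 root ORFs, all in pseudogenes, shared the stop position with a shoot ORF and differed in the start. They were 4 of the 18 root ORFs with a shared stop. Of 21482 coding root ORFs, 18972 had a shared stop, and 4118 of these were not identical, a share close to that of the 18.

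Among these 4 pseudogenes the start lay further upstream in shoot for AT2G13420 and RSU1 and in root for RNR2B and AT3G03855. AT2G13420 had 277 codons and 196 counts in root, and 285 codons and 457 counts in shoot. RSU1 (AT3G48130) had 54 codons and 39 counts in root, and 58 codons and 253 counts in shoot. RNR2B (AT5G40942), a homolog of the small subunit of ribonucleotide reductase, which makes the building blocks of DNA, had 158 codons and 192 counts in root, and 129 codons and 418 counts in shoot. The differences thus ranged from 4 codons in RSU1 to 29 in RNR2B. AT3G03855 had 263 codons and 303 counts in root, and 257 codons and 232 counts in shoot. In these listings the tissue with the earlier start had the larger count for 3 of the 4 genes, RNR2B being the exception. These counts are not scaled, and for AT3G03855 the shares of the tissue sums differed 1.10-fold. A link between start and count was not tested.

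Several ORFs along 1 transcript were listed for 3 pseudogenes. AT3G30875, in root only, had 5 separate ORFs in a row along its transcript on chromosome 3, of 148, 139, 428, 130 and 120 codons. From first to last they had 571, 513, 597, 366 and 130 counts, a sum of 2177 over 965 codons. Gaps of 217, 364, 89 and 259 bases part them. No neighbouring pair was in the same frame of the transcript, and all 3 frames were used. AT3G03855 had a first ORF of 183 codons with 239 counts in root, 287 bases ahead of the one shared with shoot and in another frame. AT1G16550 had ORFs of 191 and 218 codons in shoot, in the same frame but 780 bases apart, with 208 and 205 counts. In root it had the second of these alone, with 222 counts.

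**Figure D4:**
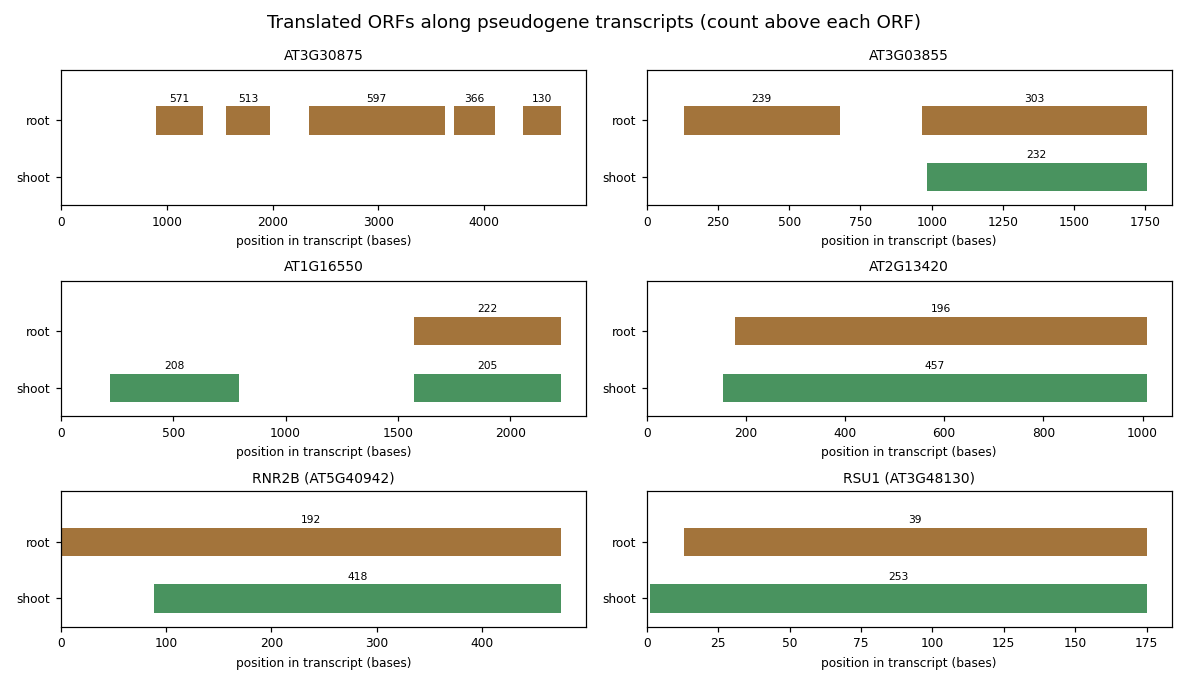
Position of the listed ORFs along the transcripts of 6 pseudogenes (bases from the transcript start), in root (brown) and shoot (green), with the count above each ORF. AT3G30875 has 5 ORFs in root and none listed in shoot, and in the last 3 genes the stops coincide and the starts differ.

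For the 12 genes with an identical ORF in both tissues, the share of each tissue's sum was compared, as the log2 of shoot over root with a pseudocount of 0.5. All 12 had at least 100 counts in the higher tissue. Of these, 1 was at least 4-fold higher in shoot and 3 were at least 4-fold higher in root. Over all 11641 genes with such a value, 8.74% reached 4-fold on the shoot side and 8.32% on the root side. The median log2 ratio was -0.12 over the 12 genes and -0.33 over all genes. Of the 12, 7 had a negative value, 5 of them under the median of all genes. Over all 11641 genes, 7417 had a negative value.

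AT1G05135 stood far on the shoot side, with a log2 ratio of 4.50 (4.40 to 4.60), or 22.6-fold. On the root side were AT1G10682 at -2.75 (-2.83 to -2.67), 6.73-fold, AT1G31935 at -2.43 (-2.63 to -2.24), 5.39-fold, and AT3G17110 at -2.31 (-2.52 to -2.11), 4.96-fold. When ratios were scaled on the median gene, AT3G17110 came within 4-fold. The other 8 genes lay between -0.80 for AT1G79075 and 0.48 for MIR414. TAS3 was at -0.49 (-0.64 to -0.34). Nearest to equal shares were AT3G06125 at -0.10 and AT3G12965 at 0.10, and the intervals of AT3G06125 and AT1G16550 included 0. Of the 7 ncRNA genes, 6 had a negative ratio, and 4 of these were under the all-gene median. A negative ratio was also the more frequent sign over all genes, at 7417 of 11641, so no direction is read from these 7.

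**Figure D5:**
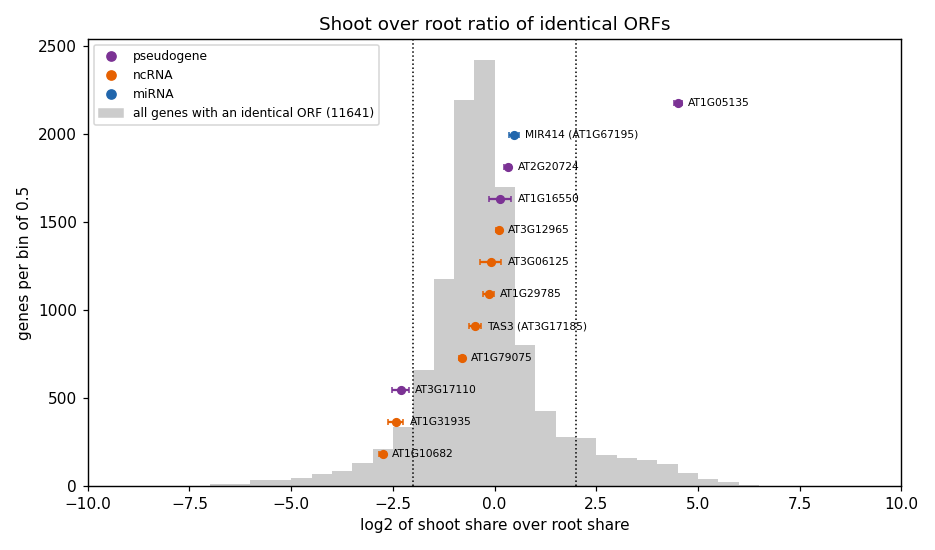
Log2 of the shoot share over the root share for the 12 genes with an identical ORF in both tissues (points, coloured by class, with exact 95% counting intervals, each gene on a line of its own), over a histogram of the same value for 11641 genes (grey, left axis). Dotted lines mark 4-fold; AT1G05135 at 4.50 lies right of them, and AT1G10682, AT1G31935 and AT3G17110 lie left.

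The 4 genes listed in both tissues without an identical ORF could be compared only by their largest ORF, which differs in length between the tissues. On that scale RSU1 was 7.62-fold, AT2G13420 2.76-fold and RNR2B 2.58-fold higher in shoot, and AT3G03855 was at -0.14. Over the 16 genes, 2 were then at least 4-fold higher in shoot and 3 in root, against 9.53% and 9.89% of 14659 genes. Pseudogenes that arose as copies resemble their parent genes, and how fragments that match several places were counted is not given in the sources used here. Counts of pseudogenes with a close copy are therefore uncertain.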

How the data were processed

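The submitters' processing notes name the build TAIR10 and, without saying what each did, Bowtie2 and STAR 2.5.1b. How ORFs were called and filtered, and how the 3 samples of a tissue were combined, is not given in the sources used here. Per the tables, the authors deposited whole-number counts, 1 per ORF and the same on all its exon blocks, of at least 6. The tables carry no header, so the unit was inferred from the values, which show no scaling for length or depth. The 2 tables were used as 1 value per tissue. Depth of the libraries is unknown, since the tables cover called ORFs only.

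Rows with the same name were joined into 1 ORF, and ORFs of a gene with the same strand and blocks were merged, leaving 21673 in root and 21038 in shoot. Coding length came from the transcript positions in the ORF name. Block sums differed from it by 1 base in every ORF, so outer ends are uncertain by a few bases. Starts are 1-based TAIR10 positions. Names came from a RefSeq table (assembly TAIR10.1), where all 52 genes matched. No sequence is shown, as the files used here hold none.

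Intervals at 95% are Clopper-Pearson for shares and exact Poisson for counts. The labels name no molecular identifiers, so reads need not be independent molecules. Ratios used the longest ORF with identical coordinates, each count plus 0.5 being divided by the tissue's sum of largest ORF counts per gene, where the higher tissue had 100 counts or more. Their intervals came from the exact binomial interval of the shoot part of both counts. The ratio step was run over all genes and tested on simulated counts. No test between tissues was made. Alternatives tried were minimum lengths of 20 and 100 codons, a minimum of 100 counts per ORF, pseudogenes alone, ORFs of any category, looser matching (same stop, 50% overlap, 1 shared base), the longest ORF per gene, no count filter, a pseudocount of 5, median scaling, and each gene's largest ORF.

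The members, the list of known non-coding RNAs and the rules were chosen with earlier results of these data known. Every ncRNA, miRNA and snRNA gene was named. Pseudogenes were named for the 6 largest counts of each placement, the 5 longest and 5 shortest ORFs, the 4 highest and 4 lowest ratios, or several ORFs, so that 46 of 52 genes are named. Scripts ran in Python 3.11.15 (scipy 1.17.1, numpy 2.4.6, pandas 2.3.3); figures used matplotlib 3.10.9.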

Additional observations from a re-analysis of the deposited data

How the results depend on the processing

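Of 50 recomputed values, 39 stayed within the limit used, which was the 95% interval for shares and 1.5 times for counts and medians. The shares of genes in both tissues, root only and shoot only all did so. With pseudogenes only, the share of identical root ORFs was 14.8%, genes at least 4-fold higher in root numbered 1, and the median log2 ratio was 0.23. Their median length was 148 codons in root and 183 in shoot, with 2.00 and 1.25 counts per codon. Among genes listed in both tissues, an alternative chosen after seeing the data, the share of identical root ORFs was 73.7% in place of 28.0%, since ORFs without a possible match are left out. The sign of the median ratio also turned, to 0.21 with scaling on the median gene and to 0.0025 with the largest ORF of each gene, so no direction is read from it. With the largest ORF, 2 genes were at least 4-fold higher in shoot in place of 1. The other causes were not tested, beyond the smaller number of genes with pseudogenes only.

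No paired analysis was possible because each tissue has 1 set with no value per replicate, and leaving out samples in turn was not run for the same reason. The lowest count in either set was 6, and the lowest among the ORFs of these genes was 20 in root and 27 in shoot. Of the 14 genes with 1000 counts or more, 8 were listed in both tissues and 6 in root only. A link between the count of a gene and its listing in 1 tissue only was not tested.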

Other observations

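For a few named pseudogenes and ZPR4, coding relatives were looked up, chosen after the members were seen. Counts of relatives are given per codon of their ORF with the largest count. RNR2B had 1.22 counts per codon in root and 3.24 in shoot. RNR2A, a small subunit gene of ribonucleotide reductase, had 6.31 and 11.1, and TSO2, another, had 39.4 and 85.9. All 3 genes had the higher value in shoot. AOP2 had 1.66 counts per codon in shoot and no ORF listed in root, while its relative AOP1 (AT4G03070) had 2.90 in root and 5.87 in shoot. AOP3, also of this family, was listed in neither tissue. RABA4E had 1.08 in shoot only, while RABA4B had 34.7 in root and 13.4 in shoot. RABA4C had 25.9 in root with no ORF listed in shoot, and RABA4D was listed in neither. RABA4A, of the same clade, could not be matched to a gene and was not looked up. ZPR4 had 2.17 counts per codon in root only. Its relative ZPR1 had 1.33 in root and 9.98 in shoot, and ZPR2 and ZPR3 were listed in neither tissue.

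In the RefSeq annotation the records of 15 of the 52 genes overlap another gene record. Those of 8 overlap a protein-coding record, and those of 4 a coding gene with a listed ORF. Those 4 are AT1G26218, RABA4E, AT4G20362 and AT5G10278. The records of RSU1, AT2G13420, AT3G17715 and AT1G29785 overlap coding genes with no ORF listed in either tissue.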
